A study of Mus musculus with 4 samples.

Results

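Tight junctions are the strands of transmembrane proteins that seal neighbouring brain endothelial cells (ECs) and so form the paracellular part of the blood-brain barrier (BBB). Claudins, the MARVEL-domain proteins occludin and tricellulin, and adhesion molecules of the JAM family meet their counterparts on the next cell, and scaffold proteins such as ZO-1 tie them to actin. RNA polymerase II (Pol II) gathers at the promoters of genes that are transcribed or held ready for transcription. Chromatin immunoprecipitation sequencing (ChIP-seq) of Pol II therefore gives peaks near their transcription start sites (TSS).

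The 9 tight junction genes Cldn5, Cldn12, Ocln, Marveld2, F11r, Jam2, Jam3, Esam and Tjp1, taken from a list of names, were followed among 21938 protein-coding genes of mm10. The data were Pol II ChIP-seq peak lists from brain ECs of 2 libraries of old WT Cre mice and 2 libraries of young EC-K4KO mice. Old WT Cre mice carried the Cre recombinase driven by Cdh5 (VE-cadherin), with wild-type Klf4. Young EC-K4KO mice carried the same inducible driver and lacked the transcription factor Klf4 in ECs. The Cdh5 driver acts in endothelium of every organ, and the cells were sorted from brain before fixation and digestion with micrococcal nuclease. Because genotype and age changed together, their effects cannot be told apart in these groups. The methods call the samples biological replicates without giving the mice behind each, so p-values measure the spread between libraries. The methods give a set number of sorted cells for each ChIP, and a lower share of ECs among them and less Pol II per EC cannot be told apart either.

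The libraries differed in depth and list length. Where 4 values follow each other, they belong to replicates 1 and 2 of old WT Cre, then replicates 1 and 2 of young EC-K4KO. The headers recorded 65734178, 27455452, 35227929 and 22705175 fragments. The lists held 78851, 39674, 35638 and 235591 peaks, so young EC-K4KO replicate 2 had the fewest fragments and the longest list. The smallest pileup (fragments stacked at a summit) of any called peak was 13, 8, 9 and 7 fragments, or 0.198, 0.291, 0.255 and 0.308 fragments per 1000000 fragments of the library (FPM), the scale used for levels throughout. Lack of a peak thus means that no stack passed the caller, not that Pol II was absent. The tallest peak of each library stacked 14.6%, 15.3%, 3.36% and 1.73% of its fragments. These fragments count in the total behind FPM, which lowers FPM more in old WT Cre. Of 13 endothelial markers, 5, 6, 0 and 8 had a promoter peak, and none of Pecam1, Slco1a4, Tek and Tie1 had a promoter peak in any library. For these and the following markers, the shares over all protein-coding genes were 25.6%, 24.5%, 10.6% and 67.5%, and 25.4% had none in any library. Promoter peaks were present at 4, 1, 0 and 5 of 8 microglia markers, 3, 1, 2 and 6 of 8 mural cell markers, and 2, 1, 1 and 4 of 7 astrocyte markers. The corresponding counts were 1, 1, 0 and 6 of 7 oligodendrocyte markers, 1, 2, 1 and 5 of 8 neuron markers, and 0, 0, 1 and 3 of 7 neutrophil markers. At the targeted gene Klf4, peaks within 1500 bp of a TSS came from the young EC-K4KO libraries alone (0.426 and 0.881 FPM), and such peaks do not measure its transcript. The part of marker signal, depth and list length in the results below was not tested, apart from lists of equal length.

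Stretches covered by promoter peaks of 3 libraries lay in the first intron of Ocln, around the first exon of Jam2 and at the start of Jam3. The 4 below are a selection from the covered stretches outside annotated exons, shown because peaks of both groups met there, in mm10, 5′ to 3′ on the strand of the gene. The first Ocln stretch, chr13:100551539-100551609 on the minus strand, lay under peaks of both old WT Cre libraries and of young EC-K4KO replicate 1. The second, chr13:100551677-100551841, lay under peaks of both old WT Cre libraries and of young EC-K4KO replicate 2. The Jam2 stretch at chr16:84774554-84774728 on the plus strand lies in an intron. The Jam3 stretch at chr9:27155422-27155464 on the minus strand lies just upstream of the annotated gene. The Jam3 stretch was covered in both old WT Cre libraries and young EC-K4KO replicate 2, and that of Jam2 in old WT Cre replicate 2 and both young EC-K4KO libraries. They are in lower case throughout, with no letters marked.
Ocln intron, stretch nearer the gene end: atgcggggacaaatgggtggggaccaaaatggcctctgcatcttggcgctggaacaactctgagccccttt
Ocln intron, stretch nearer the TSS: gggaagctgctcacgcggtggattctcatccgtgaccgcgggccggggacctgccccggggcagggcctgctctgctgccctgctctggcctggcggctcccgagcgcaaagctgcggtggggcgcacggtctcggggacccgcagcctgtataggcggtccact
Jam2 intron: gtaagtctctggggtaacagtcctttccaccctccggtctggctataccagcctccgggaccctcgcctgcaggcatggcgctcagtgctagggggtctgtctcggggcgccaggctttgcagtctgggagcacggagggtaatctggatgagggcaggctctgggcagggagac
Jam3 upstream: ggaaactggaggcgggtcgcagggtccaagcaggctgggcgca

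Promoter peaks, those overlapping the 1500 bp on either side of a TSS, were present at 5, 4, 3 and 7 of the 9 genes in the 4 libraries. Among all protein-coding genes the shares were 25.6%, 24.5%, 10.6% and 67.5%. Ocln and Jam2 had a promoter peak in all 4 libraries, as did 2.22% of protein-coding genes, and Esam had none, as did 25.4%. Both old WT Cre libraries had a peak at 3 of the 9 genes (Ocln, Jam2 and Jam3) against 10.1% of all genes, and both young EC-K4KO libraries at 3 (Ocln, Jam2 and F11r) against 9.11%. The mean number was 4.5 ± 0.707 (SD, n = 2) in old WT Cre and 5 ± 2.83 (SD, n = 2) in young EC-K4KO, a difference of 0.5 genes (two-sided exact permutation test, p = 1). No p under 0.3333 can be reached with 2 libraries a group. Without young EC-K4KO replicate 2 the difference was -1.5 genes. With each list limited to its 35638 peaks of lowest q, the counts were 2, 4, 3 and 3, and Ocln and Jam2 were again those with a peak in all 4 libraries. With a TSS window of 500 bp Jam2 alone was.

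**Figure D1:**
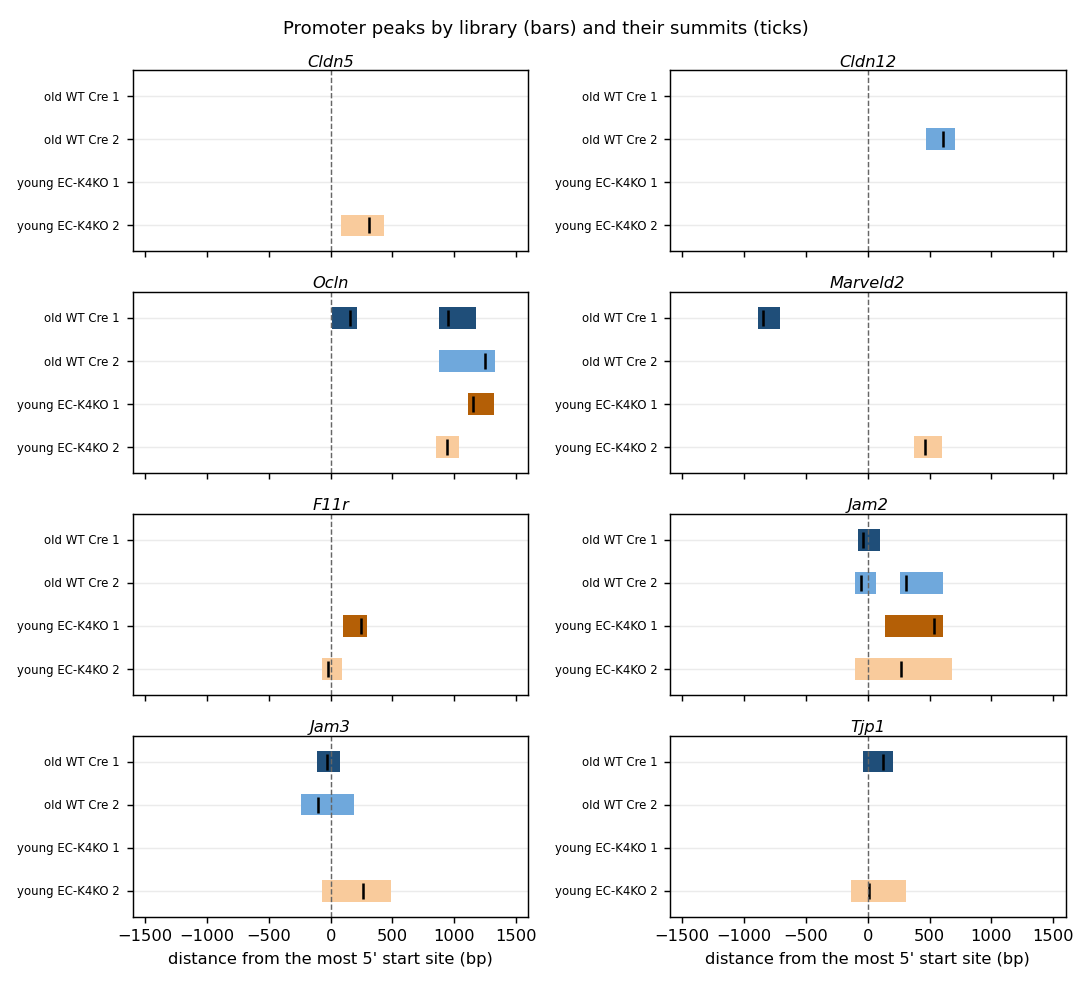
Promoter peaks of the 8 genes that had any, by library, as bars from peak start to end, with the summit as a black tick. The horizontal axis is the distance in bp from the most 5′ start site of the gene in the direction of transcription (dashed line at 0), and a further Jam2 peak of young EC-K4KO replicate 2 at the third start site of that gene falls outside the window. Ocln and Jam2 have bars in all 4 rows, and the bars of F11r in the young EC-K4KO libraries do not overlap.

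The 22 promoter peaks of these genes were modest in height. Their pileups ran from 11 to 28 fragments with a median of 17.5, and their levels from 0.259 to 1.02 FPM with a median of 0.479 FPM. Fold enrichment, the height relative to background near the peak, ran from 3.32 to 9.80 with a median of 5.19. The tallest promoter peak of each protein-coding gene had a median pileup of 21, 13, 14 and 19 fragments. Its median fold enrichment ran from 3.94 to 5.80 over the 4 libraries. Unlike these, the 22 include lower further peaks of Ocln and Jam2. The summits of 15 of the 22 lay within 300 bp of the nearest TSS and those of 13 lay downstream of it. Across all promoter peaks, 41.4% to 52.7% lay within 300 bp and 56.0% to 66.8% downstream.

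**Figure D2:**
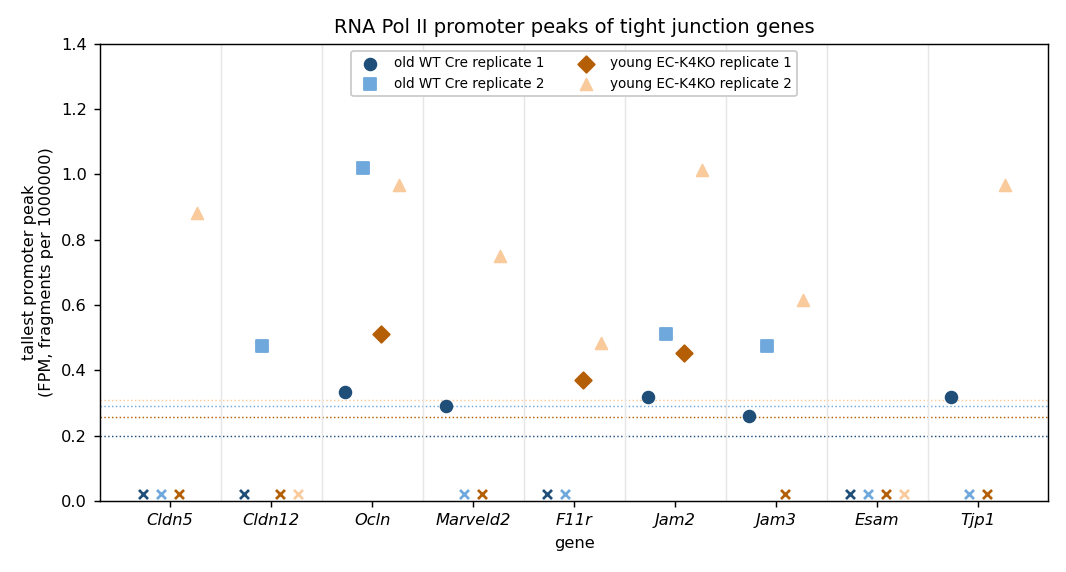
Pileup of the tallest promoter peak of each gene in FPM (fragments per 1000000 fragments of the library), 1 point per library, with crosses at the foot where no promoter peak was called. Dotted lines mark the smallest pileup of any called peak in each library, from 0.198 to 0.308 FPM. The points of young EC-K4KO replicate 2 are the highest at each gene where it had a peak, except Ocln, where old WT Cre replicate 2 stood at 1.02 FPM.

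Cldn5 and Cldn12 each had a promoter peak in 1 of the 4 libraries. Cldn5 codes for the most abundant claudin of brain ECs and has a single annotated TSS (chromosome 16, 18776847 to 18778262, plus strand). No promoter peak was called at Cldn5 in either old WT Cre library or in young EC-K4KO replicate 1, and young EC-K4KO replicate 2 had one of 20 fragments, 0.881 FPM, with a fold enrichment of 4.29. That peak (18776934 to 18777280) lay in the exon with its summit 308 bp downstream of the TSS. Among the tallest promoter peaks of all genes in that library, with ties at mid-rank, it stood at percentile 55.2 by pileup but at percentile 17.1 by fold enrichment. The local background beneath it, recovered from pileup and fold enrichment, was 3.01 times that of the genome, against a median of 1.75 times for promoter peaks of this library. The peak began downstream of the 250 bases before the TSS, chr16:18776597-18776846 on the plus strand, which no library covered. They are given here with CCAAT boxes in capitals, from the RefSeq promoter table (GRCm38.p6), because Cldn5 is the claudin most tied to the BBB.
Cldn5 upstream: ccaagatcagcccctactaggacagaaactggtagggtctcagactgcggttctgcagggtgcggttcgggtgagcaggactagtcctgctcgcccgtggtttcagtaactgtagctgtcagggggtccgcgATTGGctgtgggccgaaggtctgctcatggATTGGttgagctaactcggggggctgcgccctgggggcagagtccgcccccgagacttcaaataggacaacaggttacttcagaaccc

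Cldn12 codes for a claudin also present in brain endothelium (chromosome 5, 5489537 to 5514958, minus strand). Its promoter peak, in old WT Cre replicate 2, measured 13 fragments, 0.473 FPM, with a fold enrichment of 5.22 and a summit 468 bp downstream of the nearest TSS. The other 3 libraries had none. Among 25 other claudin genes, 7, 2, 3 and 15 had a promoter peak in the 4 libraries. None had one in all 4, and 8 had none at all.

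Occludin, from Ocln, is a MARVEL-domain protein of the strands between adjoining cells (chromosome 13, 100496507 to 100552718, minus strand). The tallest promoter pileup was 22 and 28 fragments for old WT Cre against 18 and 22 for young EC-K4KO. Scaled to depth these were 0.335 and 1.02 FPM for old WT Cre against 0.511 and 0.969 FPM for young EC-K4KO, so the low library of each group stood beside a high one and the groups overlapped. The summits of these 4 peaks lay 708 to 1010 bp downstream of the nearest TSS, in the first intron. The peak of old WT Cre replicate 2 stood high within its library, at percentile 99.1 by pileup and 99.5 by fold enrichment (9.80). Old WT Cre replicate 1 had another peak of 20 fragments, 0.304 FPM, with its summit 60 bp upstream of a TSS. No base was shared by all 4 libraries, since the intronic peaks of the young EC-K4KO replicates did not overlap each other. The mean level was 0.677 ± 0.484 FPM (SD, n = 2) in old WT Cre and 0.740 ± 0.324 (SD, n = 2) in young EC-K4KO (two-sided exact permutation test, p = 1).

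Marveld2 codes for tricellulin, the MARVEL-domain protein of junctions where 3 cells meet (chromosome 13, 100595957 to 100616971, minus strand). It had a promoter peak of 19 fragments (0.289 FPM) in replicate 1 of old WT Cre and one of 17 fragments (0.749 FPM) in replicate 2 of young EC-K4KO. The first had its summit 844 bp upstream of the nearest TSS and the second 195 bp downstream, so the peaks did not overlap.

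The JAM proteins are immunoglobulin-like adhesion molecules. Jam2, which codes for JAM-B (chromosome 16, 84774123 to 84825928, plus strand), had its tallest promoter pileup at 21 and 14 fragments for old WT Cre against 16 and 23 for young EC-K4KO. Scaled to depth these were 0.319 and 0.510 FPM against 0.454 and 1.01 FPM, and young EC-K4KO replicate 2 stood above the rest. The means were 0.415 ± 0.135 and 0.734 ± 0.395 FPM (SD, n = 2 each; two-sided exact permutation test, p = 0.6667), and the groups overlapped. Summits of these tallest peaks lay between 35 bp upstream and 273 bp downstream of the nearest TSS. Old WT Cre replicate 2 had a lower peak there as well, of 11 fragments. The tallest peak of old WT Cre replicate 1 ended before that of young EC-K4KO replicate 1 began, so again no base was common to all 4. Of the 487 genes with a promoter peak in every library, 28.5% had a base common to the peaks of all 4. Young EC-K4KO replicate 2 had another peak, of 16 fragments and a fold enrichment of 7.14, with its summit on the third TSS of Jam2 within the gene.

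Jam3, which codes for JAM-C (chromosome 9, 27097384 to 27155421, minus strand), had promoter pileups of 17 and 13 fragments in old WT Cre and of 14 in young EC-K4KO replicate 2. These were 0.259, 0.473 and 0.617 FPM, and young EC-K4KO replicate 1 had no peak. All 3 peaks overlapped at the TSS and shared 146 bases. F11r, which codes for JAM-A (chromosome 1, 171437535 to 171464603, plus strand), had promoter peaks in each young EC-K4KO library but in no old WT Cre library. They measured 13 and 11 fragments (0.369 and 0.484 FPM), with summits 242 bp downstream and 21 bp upstream of the TSS, and did not overlap. Both also lay in the promoter window of Gm26641, a long non-coding RNA gene on the opposite strand, and peaks without strand cannot be given to one of these genes. Their fold enrichments of 3.32 and 3.74 and −log10 q of 2.75 and 3.61 were low, and at q of at most 1e-05 or a fold enrichment of at least 4 F11r had no promoter peak in any library. Of all protein-coding genes, 9.11% had a promoter peak in both young EC-K4KO libraries. How many of these had none in old WT Cre was not counted.

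Esam codes for an endothelial adhesion molecule of the same superfamily (chromosome 9, 37528078 to 37538319, plus strand). No library had a peak at its promoter or within the gene. The nearest peaks lay beyond its 3′ end, 1391 and 1487 bp away in the old WT Cre libraries and 1054 bp away in young EC-K4KO replicate 2, in the promoter window of the next gene, Vsig2.

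Tjp1 codes for ZO-1, the scaffold that links the strands to actin (chromosome 7, 65296165 to 65527781, minus strand). Its promoter pileup was 21 fragments (0.319 FPM) in replicate 1 of old WT Cre and 22 fragments (0.969 FPM) in replicate 2 of young EC-K4KO, with fold enrichments of 4.13 and 9.06 and summits 98 bp upstream and 8 bp downstream of a TSS. Both peaks overlapped, and old WT Cre replicate 2 and young EC-K4KO replicate 1 had none. The 250 bases before the RefSeq start, chr7:65371245-65371494 on the minus strand, are shown because the peak of young EC-K4KO replicate 2 covered 128 of them. These included both copies of the KLF/Sp word, in capitals, while that of old WT Cre replicate 1 covered 30 bases and neither copy.
Tjp1 upstream: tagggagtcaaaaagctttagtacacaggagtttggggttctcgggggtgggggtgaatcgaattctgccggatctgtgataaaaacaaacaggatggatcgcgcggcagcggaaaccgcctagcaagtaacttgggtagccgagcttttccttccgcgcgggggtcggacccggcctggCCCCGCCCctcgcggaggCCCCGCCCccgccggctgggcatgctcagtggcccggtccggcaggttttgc

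Short words known from promoters were searched on both strands in the 300 bases around RefSeq starts (250 before to 50 after) of Cldn5, Ocln, Tjp1, Cldn12, F11r and Marveld2. Jam2, Jam3 and Esam had no entry. The KLF/Sp words GGGCGGGG and GGGTGTGG occurred at 3 of these 6 genes (Ocln, Tjp1 and Marveld2) and at 20.4% of all 32851 promoters of the table. The CCAAT box occurred at Cldn5, Cldn12, F11r and Ocln, against 37.4% of promoters. The NRF1 word GCATGCGC was at Ocln (2.71% of promoters), the TATA word TATAAA at Marveld2 (13.6%), and the AP-1 word TGACTCA at F11r (5.2%). The ETS word CCGGAAGT (3.89% of promoters), the CRE TGACGTCA (1.79%), the E-box CACGTG (7.15%) and the SOX word ACAAT (31.0%) were at none of the 6. In the 200 bp around summits, the KLF/Sp word was in 2 of 6, 2 of 5, 0 of 3 and 1 of 8 windows of these genes in the 4 libraries, against 7.8% to 12.3% of all promoter summit windows of a library, the lowest in old WT Cre replicate 1. The NRF1 word was in 2 of 6, 1 of 5, 0 of 3 and 0 of 8, against 1.11%, 1.54%, 1.89% and 1.78%. Of the 22 windows in all, 4 held a CCAAT box (12.3% to 17.0% of all promoter summit windows of a library) and 2 the SOX word (7.59% to 12.8%). The AP-1 word was in 2 (1.15% to 2.05%) and the E-box in 1 (4.5% to 5.14%). The ETS word (1.11% to 2.33%), the CRE (0.205% to 1.01%) and the TATA word (1.52% to 2.86%) were in 0. A match is a description of letters and not evidence of binding.

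Levels between groups could be fitted where all 4 libraries had a promoter peak, at 487 protein-coding genes, with limma on log2 FPM. The median gene was 0.57 higher in young EC-K4KO on the log2 scale. This shift moved with the libraries used. It was -0.02 without young EC-K4KO replicate 2, 1.17 without young EC-K4KO replicate 1, 0.27 without old WT Cre replicate 1 and 0.87 without old WT Cre replicate 2. With the fragments over the tallest peak taken off each library it was 0.37. Ocln was 0.27 higher (SE 0.767, adjusted p = 0.865), which is 0.30 below that median, and Jam2 was 0.75 higher (SE 0.767, adjusted p = 0.835), 0.18 above it. Here limma gave all 487 genes the same SE, so these values do not measure the spread of either gene alone. Neither Ocln nor Jam2 passed limma's test at an adjusted p of 0.05, as 0.205% of genes did in the higher and 1.44% in the lower direction. These shares rest on 8 calls, and on fold enrichment 0 were called. The 7 lower calls were all genes with Gm names, at similar log2 differences of -2.61 to -2.87. The sign of the Ocln difference turned when pileups were divided by the median promoter pileup of their library (-0.30), without old WT Cre replicate 1 (-0.54) or without young EC-K4KO replicate 2 (-0.19). Jam2 kept its sign, from 0.17 without young EC-K4KO replicate 2 to 1.33 without young EC-K4KO replicate 1. In FPM, both young EC-K4KO levels were above both old WT Cre levels at 19.5% of the 487 genes and below them at 2.46%. Ocln and Jam2 were in neither class.

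**Figure D3:**
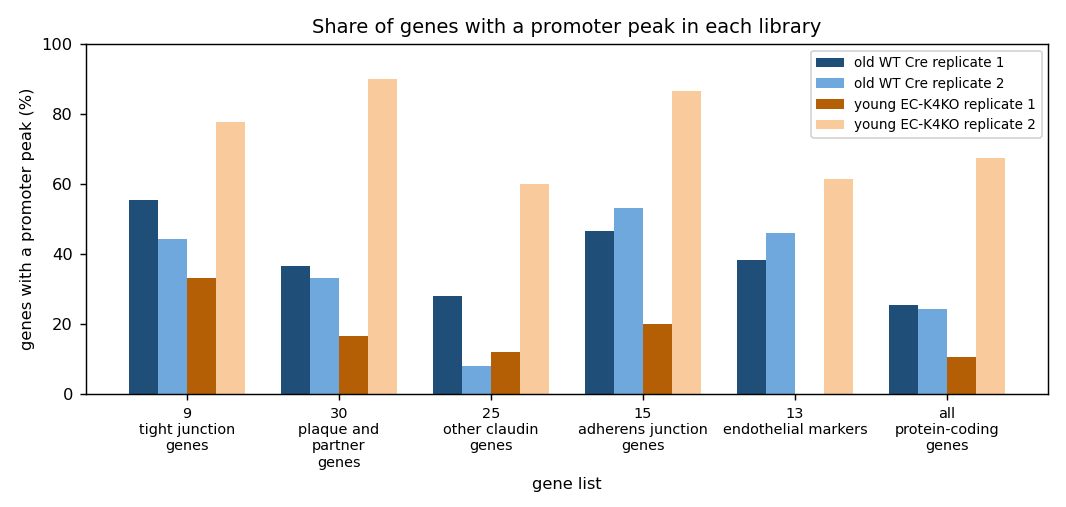
Percentage of genes with a promoter peak in each library, as bars from 0, for the tight junction genes, 4 other lists and all 21938 protein-coding genes. Young EC-K4KO replicate 2 gives the tallest bar in every list and young EC-K4KO replicate 1 has no bar at the 13 endothelial markers.

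Of 30 plaque and partner genes (scaffolds, polarity proteins and adaptors of tight junctions), 11, 10, 5 and 27 had a promoter peak in the 4 libraries, beside the shares of all genes given above. Magi1, a scaffold of the junctional plaque, was the gene of this list with a peak in every library, at 0.365, 0.583, 0.369 and 1.81 FPM. Tjp3, which codes for ZO-3, was the only one with none. Of 15 endothelial adherens junction genes, 7, 8, 3 and 13 had a promoter peak. Nectin3, a nectin adhesion molecule, had one in each library, at 0.487, 0.510, 0.284 and 1.28 FPM.

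Inside the genes, away from their promoter windows, peaks were present at 5, 3, 3 and 7 of the 9 tight junction genes, against 46.7%, 32.9%, 26.0% and 68.8% of all protein-coding genes. The difference in mean count was 1 gene (two-sided exact permutation test, p = 1), and -1 without young EC-K4KO replicate 2. The libraries had 21, 8, 8 and 53 such peaks. Per 10 kb of these genes this was 0.435, 0.166, 0.166 and 1.10, against 0.297, 0.150, 0.134 and 0.888 peaks per 10 kb of the genome. Of these 90 peaks, 43 lay in introns and 7 in exons. The other 40 lay within annotated genes but outside the basic transcripts.

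Tjp1 held the largest number, 10, 5, 6 and 23. Of these, 9, 3, 5 and 22 lay upstream of its basic promoters, in the span of a longer annotated transcript. Ocln held 4, 1, 1 and 6 and Jam3 4, 2, 1 and 8. An exon of Ocln (100511375 to 100511681) carried overlapping peaks of old WT Cre replicate 1 and both young EC-K4KO libraries, at 0.319, 0.454 and 0.529 FPM. An Ocln intron (100523123 to 100523557) carried a peak in each old WT Cre library (0.274 and 0.583 FPM) but in no young EC-K4KO library. A separate and taller peak of young EC-K4KO replicate 2 (0.837 FPM) lay close by, at 100522768 to 100522959. Peaks in the bodies of Jam2 (6) and Marveld2 (5) came from young EC-K4KO replicate 2 alone, and Cldn5 and Esam, the shortest of the 9 genes, had none.

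**Figure D4:**
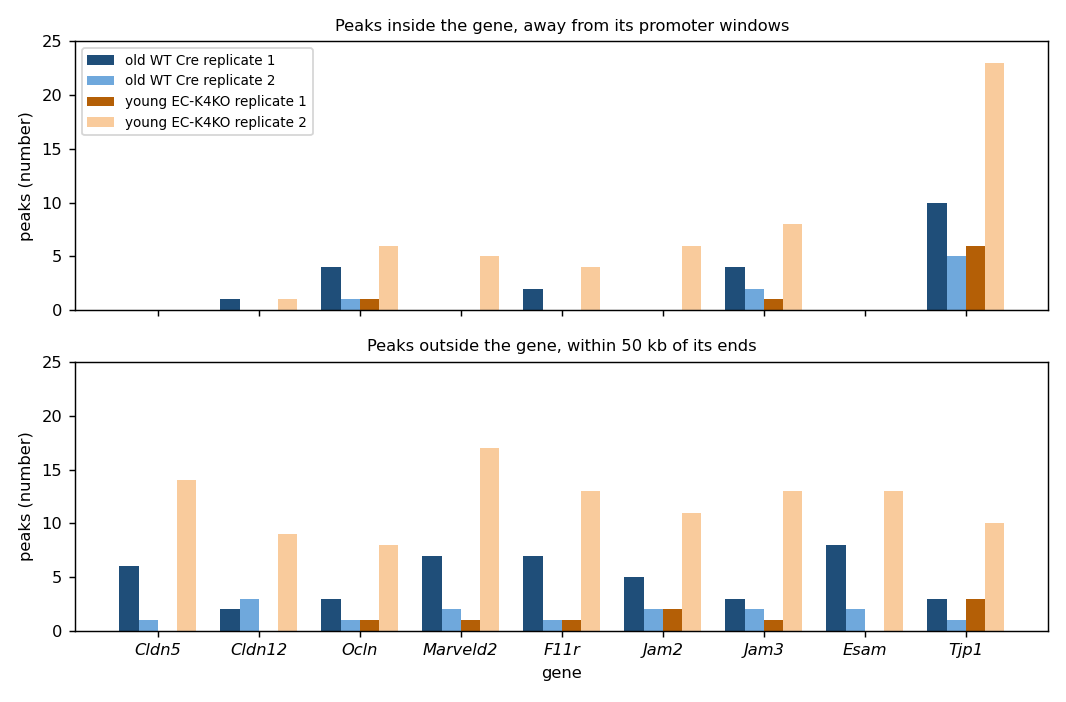
Number of peaks inside each gene away from its promoter windows (top) and outside the gene within 50 kb of its ends (bottom), as bars from 0 by library. Tjp1, the longest gene, has 10, 5, 6 and 23 peaks in its body, and young EC-K4KO replicate 1 has no peak within 50 kb of Cldn5, Cldn12 or Esam.

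Outside the genes but within 50 kb of their ends, peaks were found near 9, 9, 6 and 9 of the genes, against 92.8%, 82.2%, 71.6% and 99.1% of all protein-coding genes. The difference was -1.5 genes (two-sided exact permutation test, p = 1), 0 without young EC-K4KO replicate 1 and -3 without young EC-K4KO replicate 2. The libraries held 41, 14, 9 and 102 distinct peaks there. Ocln and Marveld2 are neighbours, so some of these peaks count for both. Around Cldn5 there were 6, 1, 0 and 14 peaks, the nearest in young EC-K4KO replicate 2, 2522 bp before and 3570 bp after the gene.

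Peaks of the 4 libraries in and around the 9 genes merged into 233 regions, of which 205 held peaks of 1 library, 22 of 2, 4 of 3 and 2 of all 4. The share in 3 or more was 2.58%, against 2.66% of all merged regions of the genome. Both regions with all 4 libraries were the Ocln intron and the Jam2 promoter already described. The 22 regions at the Cldn5 locus each came from a single library. Regions with peaks in both old WT Cre libraries and neither young EC-K4KO library numbered 4 (1.72%, against 1.36% of all merged regions), at the Ocln, Tjp1, Cldn12 and Esam loci. The reverse occurred at 1 (0.429%, against 1.62%), the promoter of Mrpl39, which codes for a mitochondrial ribosomal protein, at the Jam2 locus (0.454 and 1.15 FPM). Beside the old WT Cre regions at the Ocln, Tjp1 and Esam loci, a young EC-K4KO peak lay close without overlap (0.837, 0.426 and 0.573 FPM). Genes near the 9 that are named here were picked with their values in view.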

How the data were processed

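RNA Pol II ChIP-seq peak lists of 4 libraries were used. Per the paper's methods, the authors mapped trimmed reads to mm10 (Bowtie2), took out duplicates and called peaks library by library (MACS2). Per the file headers this was MACS 2.2.7.1 with a q cutoff of 0.01, duplicates kept and no control. The local background therefore came from the same library, and wide signal around a gene raises it and lowers fold enrichment. The authors deposited pileup, the coverage signal of fragments over a summit, not scaled between libraries. The deposited fold enrichment is a ratio over local background, and the deposited −log10 p-value and q-value are the caller's own. The narrow peak and summit files held the same peaks and were not used further.

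Pileup was divided by the header's fragments and multiplied by 1000000 (FPM). Genes and TSS were those of GENCODE M21 basic (GRCm38), and every peak on a chromosome ended within the chromosome of the reference. The tallest promoter peak gave a gene's level. Groups were compared by exact permutation of libraries and with limma 3.58.1 (R 4.3.3) with Benjamini-Hochberg adjustment, the replicate number unblocked. The limma step was tested on simulated data. Python 3.11.15, numpy 2.4.6, pandas 2.3.3, scipy 1.17.1 and pysam 0.24.0 were used.

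The named genes were the 9 members, genes of the other lists with a promoter peak in all 4 libraries, and genes with a TSS near a member's promoter peak (Gm26641). Others (Tjp3, Pecam1, Slco1a4, Tek, Tie1, Klf4, Vsig2 and Mrpl39) were named with their values in view. Members, lists and motifs were chosen with earlier results of these data known. Alternatives were other TSS windows, q, fold enrichment, list lengths, distances, scalings, a pseudocount, a pileup minimum, a replicate block and leaving out each replicate. A further stretch of sequence is not reported here.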

Additional observations from a re-analysis of the deposited data

How the results depend on the processing

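The difference in genes with a promoter peak (0.5 genes, young EC-K4KO minus old WT Cre) was 0.5 under other TSS windows, q of at most 1e-05, fold enrichment of at least 4, the most 5′ TSS, summits within the window, and TSS of the comprehensive annotation, which was added after seeing the data. It was 0 with lists of equal length and ran from -1.5 (without young EC-K4KO replicate 2) to 2.5 (without young EC-K4KO replicate 1) when 1 library was left out. For gene bodies the difference of 1 ran from -1 (without young EC-K4KO replicate 2) to 3, and it was 1.5 over the span of the basic transcripts, also added later. Within 50 kb the difference of -1.5 ran from -3 to 0.

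The limma test called 8 of 487 genes, 1 higher and 7 lower in young EC-K4KO. It called 0 on fold enrichment (2 at an unadjusted p under 0.05), 12 of 37 with a pileup of at least 20 in every library, and from 0 to 88 when 1 library was left out. The 88 (77 higher and 11 lower) came without young EC-K4KO replicate 1, and each other omission gave 0 (12 to 14 at an unadjusted p under 0.05), where a lone library is assumed to vary like the other group. With the replicate block it called 15. Same-numbered libraries deviated together with r = 0.149 over genes, and with 2 pairs they share only a number. On the log2 scale the Ocln difference of 0.27 turned to -0.30 with promoter-median scaling and ran from -0.54 (without old WT Cre replicate 1) to 1.07 (without old WT Cre replicate 2), with -0.19 without young EC-K4KO replicate 2, and Jam2 (0.75) kept its sign in all settings run, at 0.18 with promoter-median scaling and from 0.17 (without young EC-K4KO replicate 2) to 1.33 (without young EC-K4KO replicate 1). With 2 libraries a group, depths of 22705175 to 65734178 fragments gave pileups of 11 to 28 fragments at the promoter peaks of the 9 genes.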
